A study of Rattus norvegicus with 10 samples.

Results

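Messenger RNA of milk whey was compared with messenger RNA of blood serum in lactating rats. Whey is milk freed of its fat layer, its cells and its casein by centrifugation. The comparison took in all 10 arrays of the series, namely 9 whey arrays and 1 array of a serum pool. The whey came from 3 inbred F344/N dams that were milked on day (d) 2, d 9 and d 16 postpartum, and the serum came from the same 3 dams on d 21, when their RNA was combined on a single array. All dams were of the same strain. Before milking they were kept from their litters and given oxytocin and light sevoflurane anesthesia, whereas blood was drawn under deep sevoflurane anesthesia with no oxytocin described, and both fluids were passed through filters down to a 0.22 µm pore. Since serum had no replicate and was taken on another day than any whey, no test of the difference between the fluids was possible, and fluid and stage of lactation cannot be told apart. The serum pool shared its slide with d 16 whey alone, so the d 16 difference is given below as the value within a slide. Less RNA of a type and fewer source cells or vesicles of that type cannot be told apart on these arrays.

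Cell-free RNA of a body fluid is carried in vesicles, on proteins and in remnants of cells, and it mirrors the cells that shed it. Milk is made by the secretory (luminal) epithelium of the mammary gland, which synthesizes caseins, whey proteins, lactose and fat in bulk under prolactin and releases fat droplets wrapped in its own cell membrane. Serum is what remains after blood has clotted. Red cell precursors, platelets, white cells, vessel walls and liver all border on the blood, and platelets release their content during clotting.

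Each value below is a log2 normalized signal of a 60-base probe, and each difference is the mean over 9 whey arrays minus serum, unless a bound is given. A probe was kept when its signal was well above background, as called by the scanner software, on the serum array or on all 9 whey arrays. Of 41012 probes, 11355 (27.7%) were kept. Of these, 4637 were well above background on all 10 arrays, 5183 on all whey arrays but not on serum, 466 on serum but on no whey array, and 1069 on serum and on 1 to 8 whey arrays. A probe that passed through 1 fluid only had to differ, so counts over kept probes describe the fluids and support nothing on their own. Of all spots, the serum array had 6714 well above background, against 11538 to 19139 on a whey array. After normalization the lowest signal well above background was 5.85 on the serum array and 2.12 to 4.11 on the whey arrays. A gene seen in 1 fluid only therefore has only a bound, given as "at least N-fold", which sets the mean of the fluid that has it against the higher of this floor and the measured signal, per array, in the other.

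Of the kept probes, 40.8% were well above background on all 10 arrays and 45.6% on all whey arrays but not on serum. More than 4-fold higher in whey were 3782 kept probes (33.3%), and more than 4-fold higher in serum were 2326 (20.5%). With probes that were below background in 1 fluid put at their bound, 899 (7.92%) passed 4-fold towards whey. Towards serum the count was 2340 (20.6%). It takes in some probes above background on all whey arrays but not on serum. Their whey mean lay below the value set for serum, and such a bound does not show them to be higher in serum. Among the 4637 probes above background on all 10 arrays, 399 (8.6%) passed 4-fold towards whey and 813 (17.5%) towards serum, and serum lay below all whey values for 2082 (44.9%) and above them for 1720 (37.1%). The serum value lay below all 9 whey values for 6660 kept probes (58.7%), above all of them for 3395 (29.9%) and within their range for 1300. Over the kept probes, serum correlated with each whey array with r between 0.349 and 0.423, whereas whey arrays correlated with each other with r between 0.936 and 0.991. These correlations are over probes of 10 arrays normalized together, and are given as a description. The median difference over kept probes was 0.91. The 75th percentile of the processed signal was 4.11 on the serum array and 12.5 to 83.2 on the whey arrays, and quantile normalization removes this gap. When arrays were scaled to spike-in RNA instead, which keeps it, the median difference was 4.08, and 8755 probes passed 4-fold towards whey against 722 towards serum. Differences below are on the quantile scale unless stated, and a difference on the spike-in scale is higher by 3.18 at the median probe.

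**Figure D1:**
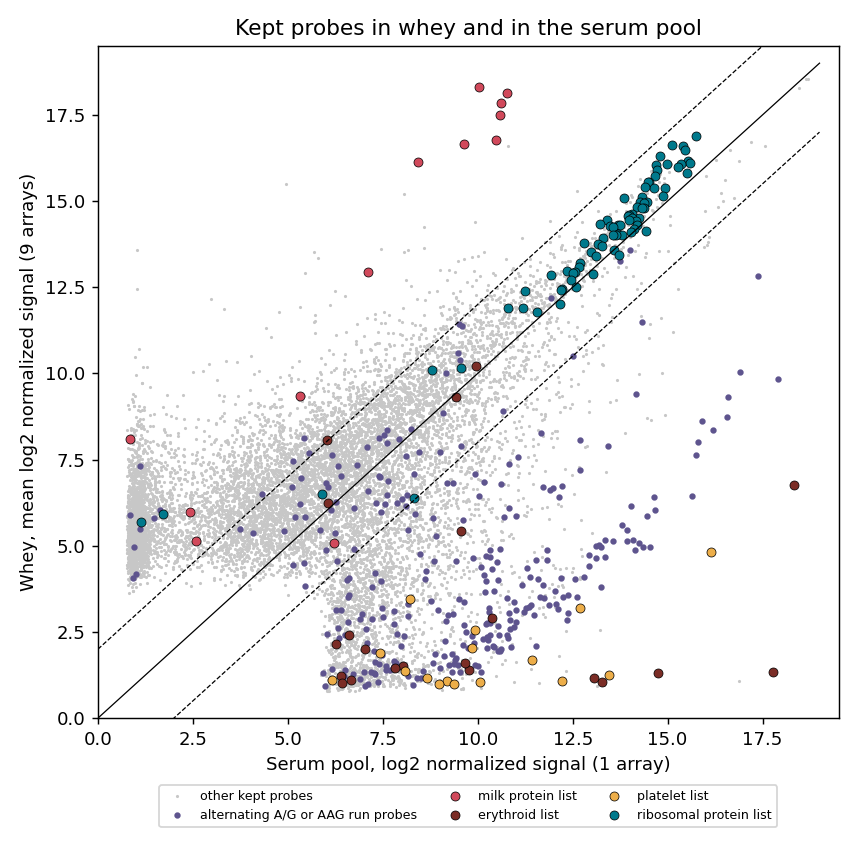
Mean log2 normalized signal of 9 whey arrays (vertical axis) against the log2 normalized signal of the serum array (horizontal axis) for 11355 kept probes. The solid line marks equal signal and the dashed lines a 4-fold difference. Most milk protein genes lie above the upper dashed line, most ribosomal protein genes along the line of equal signal, and erythroid genes, platelet genes and probes with alternating A/G or AAG runs mostly at the lower right.

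Genes of the secretory mammary cell were seen in whey, and the cells that shed this RNA were not measured. Milk protein genes made up 4.78% to 11.7% of the summed signal of a whey array (median 9.59%) and 0.0234% of that of the serum array. All 13 milk protein genes on the array were well above background in all 9 whey arrays, and 9 of them were so in serum. Of the 13, 12 were more than 4-fold higher in whey, or 10 with bounds, and their median difference was 6.91 against 0.91 over all kept probes and 7.43 for d 16 whey alone. Caseins are the curd proteins of milk. Csn2 (β-casein; probe at chr14:21853182-21853241, rat build rn4) read 16.09 to 17.37 in whey (median 16.91) and 10.47 in serum, a difference of 6.30. Csn3 (κ-casein, chr14:21674877-21674936), which keeps casein micelles in suspension, read 15.70 to 16.52 (median 16.26) against 8.44. The calcium-sensitive caseins Csn1s1, at 16.88 to 18.32 against 10.62, and Csn1s2a, at 16.69 to 17.77 against 10.58, differed by 7.22 and 6.91. Every whey value lay above serum for these genes, and serum itself was well above background for each. Csn1s2b, another calcium-sensitive casein, had a wide spread, from 9.24 to 16.21 in whey (median 13.55) against 7.11 in serum.

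Other milk proteins followed the same order. Wap (whey acidic protein) read 17.77 to 18.47 in whey and 10.77 in serum, and Lalba (α-lactalbumin, the partner that turns a galactosyltransferase into lactose synthase) 15.99 to 17.56 against 9.63. Glycam1, a mucin-like glycoprotein of milk, had the largest difference towards whey among genes measured on all 10 arrays, 8.27, with 17.56 to 18.65 in whey and 10.02 in serum. Cel, a lipase secreted by pancreas and in some species by mammary gland, read 4.33 to 6.12 in whey and 6.21 in serum, and its difference of -1.12 turned to 2.18 on the spike-in scale. Folr1, a folate receptor, and Muc15, a membrane mucin, were not well above background in serum and were at least 11.4-fold and at least 4.71-fold higher in whey. Wfdc3, which has the WAP-type core domain and is in no list here, read 12.01 to 14.79 in whey and was at least 213-fold higher there than in serum, where it was not well above background.

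Genes of milk fat formed the next block. The fat list covers fatty acid synthesis and the proteins of the fat globule membrane. Of its 26 genes on the array, 21 were above background in all whey arrays and 6 in serum. Of these, 19 were more than 4-fold higher in whey, or 14 with bounds, and the median difference was 5.05 (5.12 for d 16 alone). Fabp3, a fatty acid carrier, read 14.72 to 16.01 in whey and 4.95, below background, in serum, and was at least 803-fold higher in whey. Fasn, the fatty acid synthase, read 13.12 to 14.04 against 7.46, and a second probe of it, below background in serum, was at least 79.8-fold higher in whey. Acly, which makes cytosolic acetyl-CoA, differed by 5.40, Thrsp, a regulator of lipogenesis, by 5.05, Xdh, a coat protein of the fat globule as well as an oxidase, by 3.84, and Cd24, a surface glycoprotein, by 7.14. Cidea, a lipid droplet protein, was at least 65-fold higher, Acaca, which commits acetyl-CoA to fatty acid synthesis, at least 43.8-fold, and Olah, the thioesterase that ends synthesis at medium chains in mammary gland, at least 61.6-fold. Scd, at 4.07 to 5.74 in whey, was below background in serum, where it read 5.60, so no fold can be given.

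The remaining named genes of whey included further metabolic enzymes and carriers. Among genes measured on all arrays they were Fabp5 (a fatty acid carrier), Me1 (malic enzyme, a source of NADPH) and the uncharacterized LOC312502 and LOC503340, with differences of 5.81, 5.65, 5.74 and 5.46. Among genes not above background in serum they were Aldoc (an aldolase; 12.03 to 12.76 in whey, at least 97.3-fold), Acsl1 (fatty acid activation; at least 69.9-fold) and Bspry (at least 67.7-fold).

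Lactose synthesis and the secretory machinery each had members over 4-fold higher in whey and none over 4-fold higher in serum. Of 11 genes of lactose synthesis, 8 were kept, 4 were more than 4-fold higher in whey (3 with bounds) and none in serum. Beside Lalba these included Ugp2 (UDP-glucose formation; 11.25 to 12.04 against 7.57) and B4galt1 (the galactosyltransferase itself; 5.34 to 7.70 in whey, at least 1.86-fold). Galt, of galactose breakdown, read at most 6.91 in whey and 8.32 in serum, a difference of -1.68, and Hk1, a hexokinase, differed by -1.83. Both differences are positive on the spike-in scale. The genes that move new proteins into the endoplasmic reticulum had 27 of 30 members kept and a median difference of 1.56. More than 4-fold higher in whey were 9, the same share as over all kept probes (33.3%), and 5 with bounds, among them Sec61b, a channel subunit, at 11.88 to 12.80 against 8.94 in serum, and Ssr2 and Ssr4, translocon-associated proteins, with differences of 3.06 and 2.75. Calr, a chaperone of the endoplasmic reticulum, differed by -1.72, which also turns positive on the spike-in scale.

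Markers of luminal epithelium were mostly seen in whey alone. Of 24 on the array, 16 were above background in all whey arrays and 4 in serum, and 12 were more than 4-fold higher in whey (7 with bounds). Ehf, an epithelial transcription factor, read 8.45 to 9.49 in whey and 0.96 in serum (at least 9.21-fold), Rab25, a vesicle protein of epithelia, was at least 8.5-fold higher, Krt8, a keratin of simple epithelia, at least 6.35-fold, and Elf5, a factor of the milk-secreting lineage, at least 4.47-fold, with 7.61 to 8.33 in whey and 1.02 in serum. Cldn3, a tight junction protein, went the other way, at 7.10 to 9.48 in whey and 10.72 in serum. Its difference of -2.39 turns positive on the spike-in scale. The other members above background in both fluids were Krt18, Krt19 and Cldn4, with differences of 2.75, 1.61 and -1.39. The Cldn4 difference is 2.01 on the spike-in scale. Markers of myoepithelium, the contractile cells around the milk-secreting alveoli, were near their bounds. Of 9, 7 were kept, and whey exceeded serum over 4-fold for 4, or 0 with bounds, Cnn1 (calponin) at 4.46 to 7.49 in whey being at least 1.45-fold higher and Mylk (myosin kinase) differing by -2.13, which turns positive on the spike-in scale.

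Promoter sequences were read for milk protein and milk fat genes, as a STAT5 site, TTCNNNGAA, which carries the prolactin signal, is known in casein promoters. Of 27457 genes with a promoter in RefSeq (GRCr8; 250 bases before to 50 after the start), 9.39% held this motif. It reads the same on both strands. Of the 11 milk protein genes that matched, 5 held it, and of the 16 fat genes that matched, 0. The 30-base stretches that hold it are shown with the motif in capitals, to let the spacing of the casein genes be seen.
Csn2: tcatgtggacTTCTTGGAAttaagggactt
Csn1s1: tttgcaacaaTTCTTAGAAtttatgtaaaa
Csn1s2a: tgatattgctTTCTTAGAAttcaaatgtct
Csn1s2b: tcatggcgacTTCTGAGAAtacaagtctct
Glycam1: gccaactcatTTCCCAGAAacaccaattcc
The motif began 97, 100, 102 and 100 bases before the start in Csn2, Csn1s1, Csn1s2a and Csn1s2b, whose promoters all lie on chromosome 14, and 175 bases before it in Glycam1 on chromosome 7. A match is a run of letters, and binding was not measured here.

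Genes of red cells and their precursors were seen in serum, and the cells that shed this RNA were not measured. The 7 globin probes made up 8.67% of the summed signal of the serum array and 0.000485% to 0.00258% of that of a whey array. Of 31 erythroid genes on the array, 21 were above background in serum and 6 on all whey arrays. More than 4-fold higher in serum were 17, in whey 1, and the median difference was -5.55 (-5.50 for d 16 alone, -2.39 on the spike-in scale). Over the 6 members above background on all 10 arrays the median was 0.045, these being Tfrc, Slc25a39, Fech, Blvrb, Bpgm and Hba-a3. Hbb-b1 (β-globin, chr1:161590680-161590739) read 17.77 in serum and 1.03 to 2.01 in whey, where no array was above background, so that it was at least 28148-fold higher in serum. A second β-globin probe, Hbb, read 14.74 against 0.98 to 3.14. Hba-a3, an α-globin (chr10:15559132-15559189), was above background on all arrays, at 5.52 to 8.17 in whey (median 6.74) and 18.32 in serum, a difference of -11.55. It was the largest difference towards serum among genes measured on all 10 arrays. Globin copies are near identical, and probes may read more than 1 of them. Ahsp, the chaperone of free α-globin, read 13.27 in serum and 0.80 to 1.65 in whey (at least 1243-fold). Alas2 (chrX:39810353-39810412), the erythroid enzyme that starts haem synthesis, read 13.07 in serum and 1.04 to 1.31 in whey (at least 1089-fold). The factors Gata1 and Klf1, which drive red cell differentiation, were at least 32.9-fold and at least 28.8-fold higher in serum, and the surface proteins Rhd and Slc4a1 read 9.68 and 10.38 in serum. Slc4a1 was above background on 1 of 9 whey arrays.

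The shared part of the haem pathway differed far less than its erythroid enzyme. Of 9 genes, 8 were kept and their median difference was 0.08. Alas1, the housekeeping counterpart of Alas2, read 9.45 to 10.27 in whey and 8.45 in serum. Alad and Fech, which follow in the pathway, differed by 0.40 and 0.20, and Urod by 1.49. Uros differed by -1.59 (1.94 on the spike-in scale), and Cpox was below background in serum. Tfrc, the transferrin receptor used by all dividing cells, was the erythroid list member that was more than 4-fold higher in whey (7.63 to 8.73 against 6.03), while Blvrb and Slc25a39 differed by -0.11 and 0.27.

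The short motif AGATAA, a site of GATA factors, was searched on both strands in the same promoters. It was in 12.2% of all genes, in 5 of the 17 erythroid genes that matched and in 1 of 12 platelet genes. The Alas2 and Rhd stretches are shown, with the motif in capitals, 136 and 72 bases before the start.
Alas2: ccttgctgagaaAGATAAtgaggggggaat
Rhd: ccctgctgcctcAGATAAggcctttggcgg

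Platelet genes were seen in serum. Of 23 platelet genes on the array, 16 were above background in serum and 0 on all 9 whey arrays. All 16 were more than 4-fold higher in serum, against 20.5% of all kept probes. Their median difference was -8.05 (-8.02 for d 16 alone, -4.60 on the spike-in scale). Each of them had passed the filter through serum only, so this count describes serum and supports nothing on its own. Bounds add no check here, as all 466 probes above background on serum but on no whey array passed 4-fold at their bound. The list made up 0.675% of the serum signal and at most 0.00117% of that of a whey array. Pf4 (platelet factor 4, a chemokine of platelet granules; chr14:18812555-18812614) read 16.14 in serum and 3.13 to 5.75 in whey, where it was above background on 8 of 9 arrays. Its neighbour Ppbp, another granule chemokine, read 10.06 in serum and at most 1.28 in whey (at least 135-fold). Gp1bb and Gp9, subunits of the receptor for von Willebrand factor, read 13.45 and 12.23 in serum, and Gp1bb was at least 1414-fold higher there. Gng11, a G protein subunit, read 12.69 in serum and 1.55 to 3.92 in whey. Treml1, a receptor of platelet granules, read 13.33 in serum with its brighter probe (at least 1302-fold higher), and Nrgn (neurogranin), F13a1 (clotting factor XIII), Vwf, Ptgs1 and P2ry12 were above background in serum and on 0, 0, 0, 0 and 2 whey arrays. The other 7 members, among them Gp1ba and Itgb3, were above background on none of the 10 arrays.

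**Figure D2:**
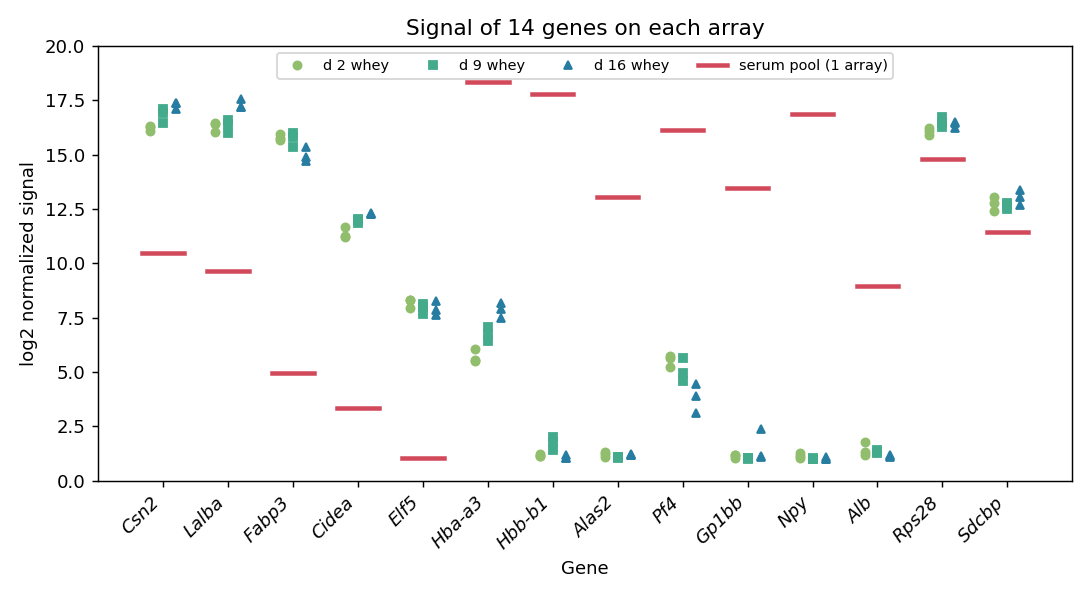
Log2 normalized signal of 14 genes on each array. Circles, squares and triangles are the 3 dams on d 2, d 9 and d 16, and the red bar is the single serum array. Genes at the left, Csn2 to Elf5, lie above the serum bar on all 9 whey arrays, and those from Hba-a3 to Alb below it. Rps28 and Sdcbp, at the right, lie within about 2 log2 units of it.

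Genes of white cells were seen in serum, a few of each type. Of 21 neutrophil genes, 9 were kept and 8 were more than 4-fold higher in serum. S100a9, an inflammatory calcium-binding protein of neutrophils, read 12.69 in serum and 1.54 to 7.92 in whey (median 3.00; above background on 4 of 9 arrays), and the defensin Defa5 10.34 against 1.17 to 5.29. Lcn2, which neutrophils and secretory epithelium both make, was above background in all whey arrays (5.70 to 8.49) and not in serum. Of 23 genes of T and NK cells, 7 were kept, all more than 4-fold higher in serum. Cd3d and Cd3g, chains of the T cell receptor complex, read 9.80 and 9.32 in serum and 4.11 to 6.56 and 4.55 to 6.23 in whey. The list's median difference was -4.84 (-1.15 on the spike-in scale). Of 11 B cell genes, only Pou2af1, a coactivator of immunoglobulin genes, was kept (serum 7.86).

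Macrophage genes stood between the fluids. Of 20, 12 were kept, 8 of them above background on all whey arrays, and 8 were more than 4-fold higher in serum. The median difference was -3.19 over all whey arrays and -1.60 for d 16 alone, and it turned to 0.43 on the spike-in scale. Tyrobp, a signalling adaptor of myeloid cells, read 7.29 to 10.78 in whey and 12.28 in serum, and C1qb, a complement chain made by macrophages, 4.79 to 8.86 against 10.33. On the spike-in scale both differences turn slightly positive, to 0.20 and 0.35. Cd14, the coreceptor for bacterial lipopolysaccharide, was above background in all whey arrays (5.63 to 8.44) and not in serum (1.13; at least 2.17-fold higher in whey).

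Genes of vessel wall, stroma and fat tissue were seen in serum. Of 12 endothelial genes, 4 were kept, all more than 4-fold higher in serum, Erg, an endothelial transcription factor, at 9.61 against 0.79 to 1.33 (at least 98.5-fold) and Egfl7, a secreted vessel protein, at 10.64 against 2.93 to 5.29. Pecam1 was above background on none of the 10 arrays. Of 12 fibroblast genes, 6 were kept and all were more than 4-fold higher in serum, including the matrix proteoglycans Bgn (12.52 against 2.76 to 5.26) and Dcn (9.41 against 1.00 to 1.32) and the collagens Col1a2 (9.97), Col3a1 (7.61) and Col6a1 (6.18). Of 9 fat cell genes, 4 were kept and all were more than 4-fold higher in serum. Cfd (adipsin) read 11.34 in serum and 6.14 to 8.53 in whey, and Adipoq (adiponectin) 7.26 against at most 1.38. The paper, with a cut-off on the raw signal that was not used here, took adiponectin RNA as not detected on its arrays. It was not detected by the paper's qPCR either.

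Few genes of the solid organ lists were kept, and the tissue that shed this RNA was not measured. Of 36 liver genes, 6 were above background in serum and 0 in whey. Alb (albumin) read 8.98, Fabp1, a fatty acid carrier of liver and gut, 8.65, and Rbp4, Apoc3, Apoa2 and Ttr between 6.07 and 7.50, while Apob (apolipoprotein B) and Fgb (a fibrinogen chain) were above background on none of the 10 arrays. Kept members were 2 of 16 for pancreas (Ctrb1 and Cela1, digestive enzymes, at 7.37 and 7.74 in serum, Ctrb1 with a difference of -3.49 that is 0.03 on the spike-in scale), 6 of 20 for muscle, 4 of 17 for brain, 2 of 13 for kidney, 3 of 8 for lung, 1 of 12 for testis and 0 of 13 for intestine. Aqp2, a water channel known from kidney, was high in both fluids, at 11.28 to 12.97 in whey and 11.54 in serum. Of the lung list, Sftpd (a surfactant protein of many mucosal surfaces) was above background on all 10 arrays with a difference of 1.99, and Cldn18 with -3.01 (0.52 on the spike-in scale), while Sftpc read 6.07 in serum and at most 2.00 in whey. Of the brain list, Gfap (an astrocyte filament) read 8.53 in serum and was above background in whey on 3 of 9 arrays, Grin1 (a glutamate receptor) differed by -2.96 (0.37 on the spike-in scale), and Slc1a2 (a glutamate transporter) was in whey only. Of 1109 olfactory receptor genes, each read by 1 probe, 36 (3.25%) were kept, against 27.7% of all probes. More than 4-fold higher in serum were 31 of these (86.1%, against 20.5% of all kept probes). Of the 36, 7 were above background on serum but on no whey array and 13 on serum and on 1 to 8 whey arrays. Such members passed through serum only. The median difference was -3.67 (-0.33 on the spike-in scale).

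Npy (neuropeptide Y) was the next named gene of serum after Hbb-b1. It read 16.87 in serum and 1.00 to 1.27 in whey, and was at least 15140-fold higher in serum. Pla2g2a, a secreted phospholipase, read 13.15 in serum and at most 0.95 in whey (at least 1149-fold). Further genes of serum alone, named after their values were seen, were Bglap (osteocalcin, a bone protein; at least 396-fold), Msln (mesothelin, of body cavity linings; at least 263-fold), the defensin RatNP-3b (at least 252-fold), Id3 (a transcription inhibitor; at least 200-fold) and Prg2 (an eosinophil granule protein; at least 181-fold).

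Of the gene groups that every cell uses, ribosomal proteins were near equal on the quantile scale, and the others were spread. Of 81 ribosomal protein genes, 79 were kept, 76 of them above background on all arrays, and the median difference was 0.58. Only Rps26 and Rpl10l, both below background in serum, were more than 4-fold higher in whey (none with bounds), and 0 in serum. Rps28 read 15.88 to 16.74 in whey and 14.79 in serum, and Rpl37, at the other end of the list, differed by -1.94 (1.78 on the spike-in scale). Probes of ribosomal proteins took a median of 20.04% of the summed signal in whey (at most 23.1%) and 6.96% in serum. Genes of the respiratory chain had 76 of 81 kept and a median difference of 1.71, with 28 more than 4-fold higher in whey (36.8%, against 33.3% of all kept probes, and 23 with bounds) and 3 in serum. Ndufv3, of complex I, read 11.14 to 11.90 against 7.08. The 3 in serum were Cox8b and Cox4i2, tissue-specific subunits of cytochrome oxidase, and Atp5if1, the inhibitor of ATP synthase, at 13.52 in serum against 11.34 to 11.65 in whey. Of these, Cox4i2 and Atp5if1 turn positive on the spike-in scale. Proteasome genes had 36 of 38 kept, a median difference of 1.25 and 9 more than 4-fold higher in whey (25.0%, below the share of all kept probes, and 5 with bounds). The subunits of the immunoproteasome, Psmb8, Psmb9 and Psmb10, differed by 0.99, -1.19 and -0.61 (4.74, 2.45 and 3.02 on the spike-in scale). Genes of vesicle formation (the exosome list) had 16 of 20 kept and a median difference of 0.37, but its members split, with 3 more than 4-fold higher in whey (none with bounds) and 5 in serum. Vps4a, which takes part in vesicle budding, differed by 5.04 and was below background in serum (at least 1.65-fold higher in whey), whereas Anxa2, a membrane-binding annexin, and the tetraspanin Cd63 differed by -2.62 and -2.07 (1.10 and 1.67 on the spike-in scale). Sdcbp (syntenin) differed by 1.36, Hspa8 by 0.88 and Lamp1 by 0.03, while Rab27a and Rab27b, which dock vesicles for release, were above background in serum only (6.39 and 8.19) and Cd9 read 7.83 in serum against 3.18 to 4.35 in whey.

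**Figure D3:**
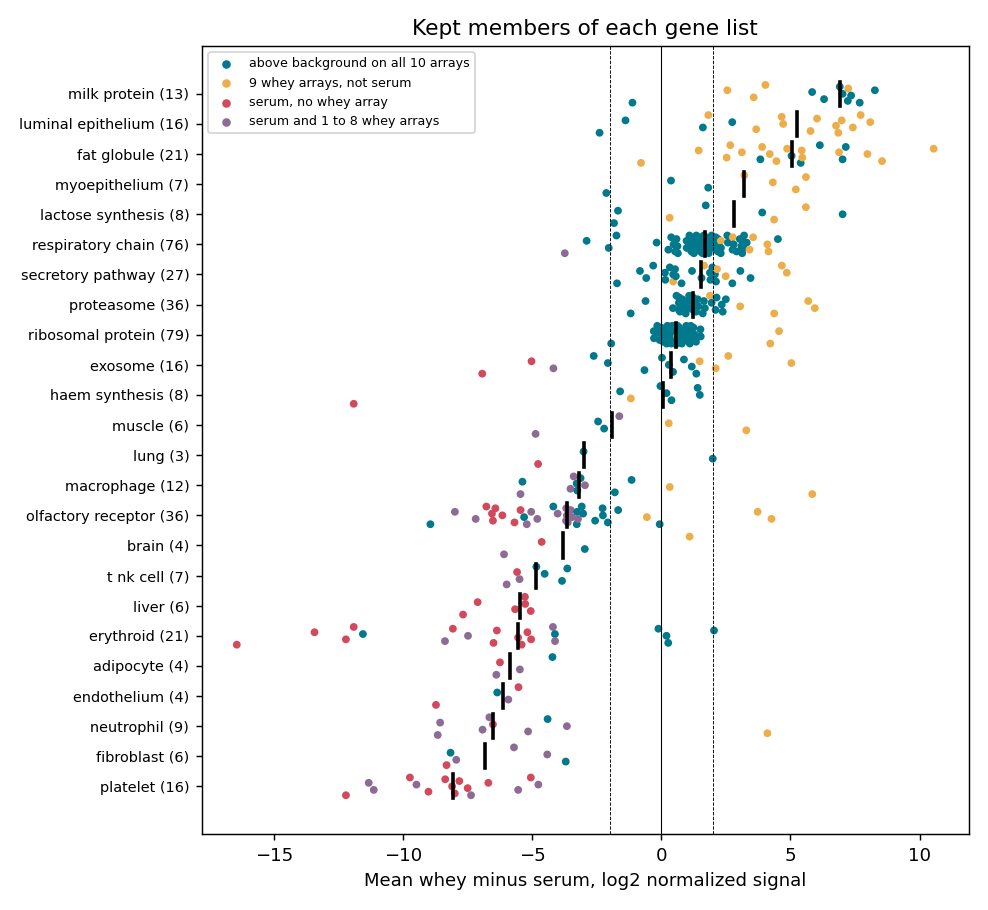
Difference between mean whey and serum, in log2 normalized signal, for each kept member of 24 gene lists with 3 or more kept members. The number of members is in brackets, black bars are medians, dashed lines mark 4-fold, and colour gives the fluid in which the probe was well above background. Milk protein, luminal epithelium and fat globule genes lie mostly to the right and platelet, fibroblast and neutrophil genes mostly to the left.

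A feature of probe sequence went with high serum signal. No kept probe held a perfect simple repeat of 20 bases or more, and 19 held one of 15 or more. Short alternating runs of A and G were different. Of all probes whose longest such run was 5 bases, 14.6% were above background in serum, against 19.3% at 6 bases, 38.8% at 7 (126 of 325), 87.0% at 8 (94 of 108), 96.2% at 9 (25 of 26) and 100.0% at 10 (6 of 6). The median serum signal went from 1.79 at 5 bases to 5.02 at 7, 10.42 at 8 and 15.69 at 10, and the median whey mean from 1.74 at 5 bases to 2.11 at 7, 3.20 at 8, 5.16 at 9 and 7.997 at 10, where all whey arrays were above background as well. The share above background went with the strand that held the run. Of 75 probes with a C and T run of 8 or more, the complement, 15 were above background in serum, against 89.3% of 140 with an A and G run of that length. The other pairs of bases gave 8.54% (A and T) to 25.0% (C and G, 1 of 4). Of 46 further probes with an AAG run of 10 or more, 43.5% were above background. Alternating A/G runs from 7 bases and AAG runs from 10 bases are called purine-repeat probes here, a definition set after the values were seen. They made up 11.4% of the summed serum signal and 2.17% to 3.69% of that of a whey array.

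**Figure D4:**
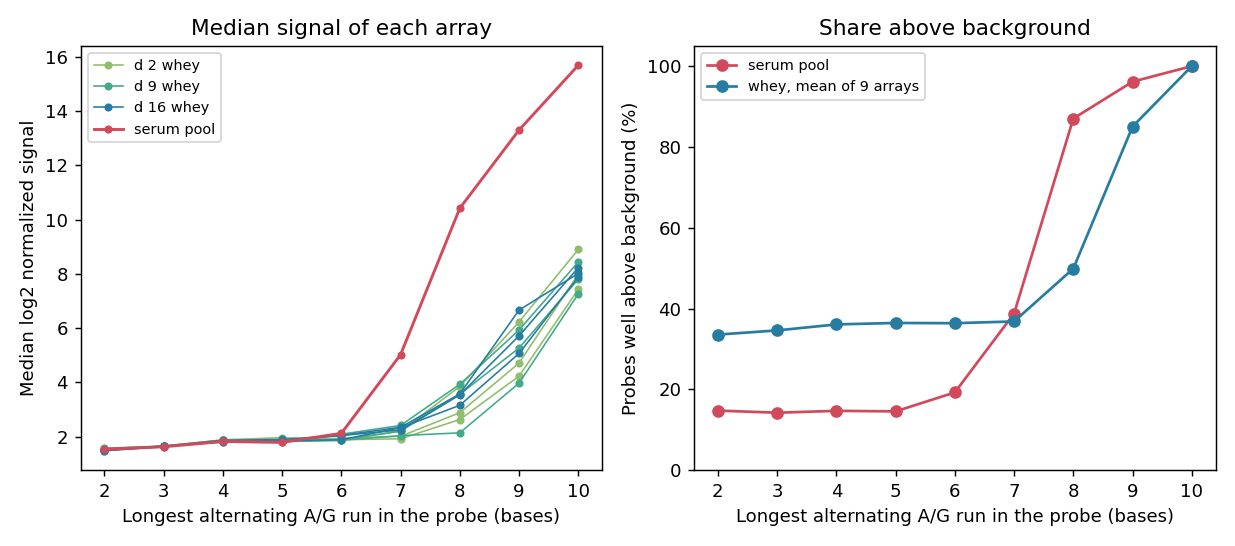
Left, median log2 normalized signal of each of 10 arrays by the longest alternating A/G run of a probe. Right, percent of probes well above background, in serum and as the mean of 9 whey arrays. Serum departs from whey at 7 bases (median 5.02) and reaches 15.69 at 10 bases, and the whey arrays rise later and less.

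Among the 15 named genes with the largest differences towards serum, 12 were read by such probes. They were Tp53i11, Or52e8b (an olfactory receptor), LOC680711, Cyct (a testis cytochrome c), Caskin2, Marcksl1, Avil, Ccdc89, Elf2, RGD1560019, Rab3gap2 and Rassf4. Their serum values lay between 13.11 and 17.91, and their differences between -9.59 and -7.89. Stretches of 30 bases of 5 of them are printed with the run in capitals, followed by a Wap stretch, whose probe has a shorter run, and by probes of Edem1 and Vangl2 with the complementary run.
Tp53i11: tatagtcccaAGAGAGAGAGtcgtaggaat
Elf2: aaagcttcacAGAGAGAGAGgatagcaaga
Rab3gap2: GAGAGAGAGAagacaaaggttattctatag
Caskin2: aaatgcaagGAGAGAGAGccactacggact
Marcksl1: AAGAAGAAGAAGAAattctctttcaagaag
Wap: tcttggatccAGAGAGAacataatgctttc
Edem1: caaatgttTCTCTCTCTCTCTgtgatgtgc
Vangl2: ggtcaacctcCTCTCTCTCTgagttgaccc
Serum read 14.55, 15.75, 17.91, 14.66 and 14.46 for the first 5. It read 10.77 for Wap, 6.71 for Edem1 and 3.87 for Vangl2. Tmod4 and Mixl1, not printed, have C and T runs of 10 bases and read 8.89 and 4.15 in serum. Tmod4 differed towards serum, by -4.29 (whey 3.85 to 5.28). Edem1, Vangl2 and Mixl1 differed towards whey, by 1.75, 3.42 and 1.59. Of the 299 kept purine-repeat probes, 223 were more than 4-fold higher in serum (74.6%) and 13 in whey. Whether these serum signals stem from the genes the probes are named for was not tested. Without them, 2103 of 11056 kept probes (19.0%) were more than 4-fold higher in serum and 3769 (34.1%) in whey, and serum lay below all whey values for 6619 (59.9%) and above them for 3146 (28.5%). No member of the erythroid, platelet, liver or white cell lists was such a probe. The 3 genes among the 15 without such a run were Hba-a3, Bgn and S100a4 (a calcium-binding protein; 12.74 against 3.80 to 5.72). With these probes set aside, genes that came next included Robo1, Egfl7, Coro1a (an actin regulator of white cells; 12.55 against 4.79 to 7.93) and Lrg1 (a plasma glycoprotein; 12.11 against 5.28 to 7.24), named after their values were seen.

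Base composition went with the difference as well. Among the 11056 other kept probes, the median difference fell from 2.04 for probes with under 35% G and C to 0.77 at 45% to 50% and -0.27 at 55% or more. More than 4-fold higher in serum were 12.3%, 18.3% and 33.7% of them.

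**Figure D5:**
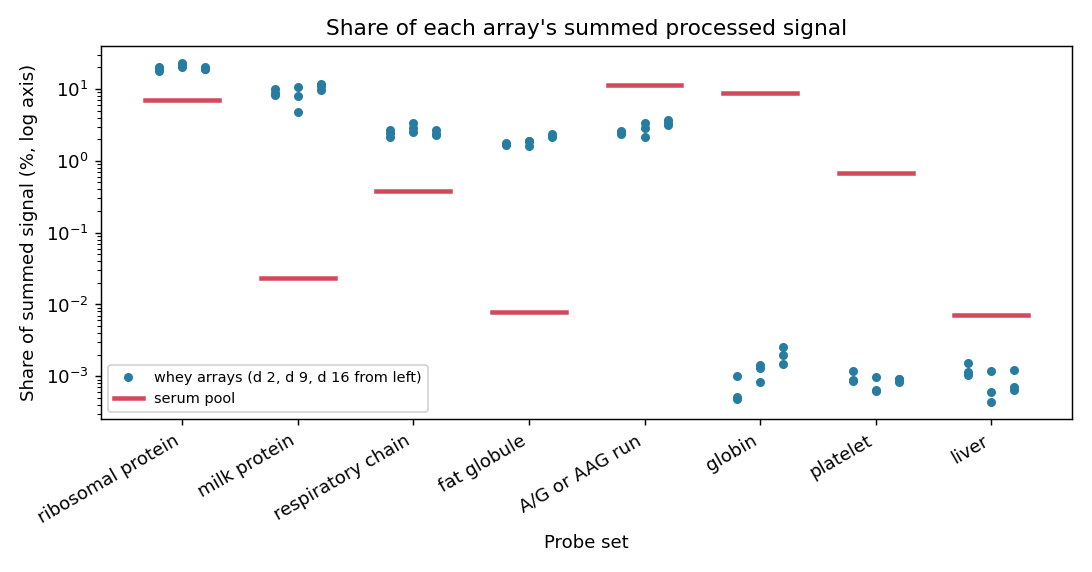
Share of each array's summed processed signal taken by the probes of 8 sets, in percent on a log axis. Blue points are the 9 whey arrays by day and the red bar is serum. Milk protein takes 4.78% to 11.7% in whey and 0.0234% in serum, and globin 8.67% in serum and at most 0.00258% in whey.

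The days of lactation were compared next, to ask which differences from serum depended on when whey was taken. Of 15857 probes measured on at least 3 whey arrays, limma's F test (Benjamini-Hochberg adjusted) called 4747 between days (29.9%), and 3413 of the 10602 kept ones among them (32.2%). It called 1355 of 3782 probes more than 4-fold higher in whey (35.8%) and 535 of the 1573 probes more than 4-fold higher in serum that were measured in whey (34.0%; 36.2% of 1429 without purine-repeat probes). Only 38 of 220 purine-repeat probes (17.3%) were called. Among milk proteins, 6 of 13 were called, all with higher means on d 16 than on d 2. Csn1s2b rose from 9.4 ± 0.22 (SD, n = 3) on d 2 to 13.52 ± 0.27 on d 9 and 15.92 ± 0.26 on d 16 (adjusted p = 3.83e-05 by limma), and d 16 whey exceeded serum by 8.82. Csn2 rose from 16.23 ± 0.12 to 17.28 ± 0.16 (adjusted p = 0.0108 by limma) and Lalba from 16.30 ± 0.23 to 17.32 ± 0.21 (adjusted p = 0.0115 by limma, 0.0913 on the spike-in scale). Every array took the same mass of RNA, so such a rise is relative to other RNA and not per volume of milk. The paper's qPCR, on equal volumes, found Lalba higher in colostrum, its earliest whey, and β-casein unchanged. Of the caseins, it found only the first one named in this paragraph higher in late whey. The paper also reports far more RNA per volume in colostrum. Wfdc3 rose from 12.13 ± 0.20 to 14.53 ± 0.23 (adjusted p = 0.000306 by limma) and Pcp4, a calmodulin-binding protein seen in whey only, from 8.41 ± 0.32 to 14.65 ± 0.22 (adjusted p = 0.000103 by limma). Slide followed day in part, since d 16 whey had a slide and a scan day of its own.

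Macrophage genes came nearer to serum in later whey. Of 12 tested, 11 were called, 10 with a higher and 1 with a lower mean on d 16 than on d 2. Tyrobp rose from 7.49 ± 0.32 on d 2 to 10.44 ± 0.30 on d 16 (serum 12.28; adjusted p = 0.00147 by limma), Fcer1g from 5.44 ± 0.47 to 9.16 ± 0.67 (serum 12.66; adjusted p = 0.00158 by limma) and C1qb from 5.08 ± 0.33 to 8.77 ± 0.15 (serum 10.33; adjusted p = 0.00203 by limma). Cd14 fell, from 8.11 ± 0.34 to 6.23 ± 0.59 (adjusted p = 0.0144 by limma, 0.136 on the spike-in scale and up to 0.0504 without 1 array). Of the other cell type lists, T and NK cells had 3 of 4 called, all higher on d 16 (Cd3d, Cd3g and Nkg7), neutrophils 4 of 6, 3 of them higher, and luminal epithelium 8 of 16, 7 of them lower on d 16, Krt8 falling from 9.34 to 8.18. On the spike-in scale the counts called were 9 of 12 for macrophages, 4 of 4 for T and NK cells, 3 of 6 for neutrophils and 1 of 16 for luminal epithelium. With 1 array left out, 1 to 3 T and NK genes and 3 to 9 luminal genes were called. The Tukey-Kramer test called 1 and 6 of them. Nkg7 lay at the threshold (adjusted p = 0.0499 by limma). The part of cell make-up in these changes was not tested. The α-globin probe Hba-a3 rose from 5.72 ± 0.30 to 7.84 ± 0.35 (adjusted p = 0.00261 by limma), with a difference of -10.48 left between d 16 whey and serum, and Hbb-b1 was above background on 0 whey arrays. Ribosomal protein genes had 2 of 79 called (24 with normexp correction) and myoepithelial genes 0 of 7, against 29.9% of all probes.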

How the data were processed

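Whey and serum RNA (100 ng per array, per the methods) was amplified, labeled with cyanine 3 and hybridized to 4x44K rat arrays. The authors deposited Agilent Feature Extraction 9.5.3.1 output, whose processed signal is an intensity already corrected for background, with probe positions in build rn4. A deposited table of normalized values was not used, as its 10 columns matched no label, and the authors normalized by quantiles in GeneSpring. Here log2 of the processed signal of noncontrol spots was quantile normalized over 10 arrays (limma 3.58.1, R 4.3.3), flagged outlier spots were left out and spots of a probe averaged. Another 4 probes passed the filter but had no serum or whey value left and were dropped. A probe counts as above background when the scanner flag says so for 0.5 of its spots or more. Current symbols were found for 16815 of 20503 RefSeq accessions (GRCr8 table), and 3660 of them differed from the file's symbol. A gene in a list was read by the probe above background on most arrays, ties going to the brightest. Named genes were, in either direction, the 15 with the largest difference among probes above background on all 10 arrays, the 8 largest bounds each way among probes seen in 1 fluid only, and up to 4 members of each list (all where 10 or fewer were kept). Genes, lists and rules were chosen with earlier results of these data known. Some genes that this rule names are not reported here.

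Whey days were compared with limma's F test (9 arrays, probes above background on at least 3, Benjamini-Hochberg, threshold 0.05), two-sided and tested on simulated data first. Dam numbers pair the samples, as each dam gave whey on all 3 days. Deviations of one dam's samples from the day means correlated with r from -0.02 to 0.31. Slide 1 held d 2 whey of 2 dams, slide 2 the remaining d 2 and the d 9 whey, and slide 3, scanned on a later day, d 16 whey and serum. The number of arrays limits the precision of every value. Alternatives were other scalings (75th percentile, 9 spike-in probes), normexp background correction with offset 50, other filters and thresholds, single days, each whey array left out, dam or slide as a block, and the methods' Tukey-Kramer test.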

Additional observations from a re-analysis of the deposited data

How the results depend on the processing

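The number of probes more than 4-fold higher in whey was 3782 and in serum 2326. The split depended most on scaling and on background. Spike-in scaling gave 8755 and 722 (92.4% of calls higher in whey, against 61.9%), normexp correction 514 and 877 (37.0%), probes above background on all 10 arrays 399 and 813 (32.9%), and probes above background on serum or any whey array 5755 and 3345. Bounds for probes below background in 1 fluid, an alternative chosen after seeing the data, gave 899 and 2340 (27.8%). Towards serum this count takes in some probes of whey alone, which it does not show to be higher in serum. The 75th percentile gave 3587 and 1962, d 16 whey alone 5083 and 2343, and leaving out 1 whey array 3771 to 4554 and 2299 to 2353. Leaving out purine-repeat probes, also chosen after seeing the data, gave 3769 and 2103, and 3680 and 1982 from 6 bases. At 2-fold the counts were 5493 and 2974, at 8-fold 2671 and 1791. Simple repeats of 15 bases or more were found in 19 probes, against 0 of 20 or more. The median of the macrophage list turned to 0.43 that of the lung list to 0.52, and those of muscle and kidney to 1.52 each, with spike-in scaling, and the erythroid median to 0.045 over its 6 members above background on all 10 arrays. Among 46 probes of genes named by rank, none changed sign in the settings under which its difference was computed. The day test called 4747 probes, 5037 with dam as a replicate block (4204 in common), which kept the call of every gene whose days are described above and moved ribosomal protein calls from 2 to 0, and 2836 (without d 16 whey of dam 3) to 4756 with 1 array left out, with 2881 without d 2 whey of dam 2. It called 5854 with slide as a random block, 4195 with spike-in scaling and 4000 by the Tukey-Kramer test. Serum rests on 1 array, and the cause of each shift was not tested.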
